A study of Homo sapiens with 6 samples.

Results

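The 10 genes described here are Atf4 and genes that it is known to control, together with enzymes that make serine and pass its carbon into folate metabolism. They were chosen by symbol, as the rows named Atf4, Ddit3, Trib3, Asns, Chac1, Sesn2, Phgdh, Psat1, Shmt2 and Mthfd2 in a deposited table of 22989 genes, and all 10 were found and tested. By the labels and the study, RNA came from paclitaxel (PTX)-resistant breast cancer stem cells (BCSC) sorted for high aldehyde dehydrogenase activity. The cells are given as MDA-MB-231, a human triple-negative breast cancer line. The deposited table, however, carries mouse gene names, as described below. The KD group held 3 libraries with the genotype LINC00115 knockdown, made with a short hairpin RNA (shRNA) from a lentivirus against this long non-coding RNA, and the control group held 3 libraries labelled WT. The label WT does not say whether these cells carried a control shRNA, which the study's knockdown assays used. Exposure to virus may thus differ between the groups along with the knockdown. The labels and the study give all 6 libraries the same line and PTX resistance, and no library from PTX-sensitive cells. A legend of the study names sh115-2 as the shRNA of the KD cells whose RNA was compared, while the labels number the KD libraries sh115-1 to sh115-3. No source says that the libraries of a group came from separate cultures. The p-values thus judge the group difference against the spread between these libraries, which may be only technical.

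ATF4 is a bZIP transcription factor whose messenger RNA is translated more when kinases phosphorylate the initiation factor eIF2α, as happens under amino acid shortage, endoplasmic reticulum (ER) stress, viral RNA or heme shortage. This integrated stress response slows most translation while ATF4 switches on genes for amino acid synthesis, amino acid import, glutathione metabolism and feedback on the stress signal. Serine is made from a glycolytic intermediate by PHGDH, PSAT1 and PSPH, and SHMT2 and MTHFD2 then move its carbon through mitochondrial folate. ATF4 activity is set to a large extent by translation, which RNA counts do not measure.

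ATF4 binds composite sites that join parts of a C/EBP site and an ATF site, often written TGATGNAA, which reads TTNCATCA on the other strand. These letters were looked for on both strands in the RefSeq promoter windows of the human genes (GRCh38.p14, 250 bases before to 50 bases after each start), since the labels name a human line. The symbols of the count table are those of a mouse annotation, with 4650 beginning with Gm and a digit and 1129 ending in Rik. The stretches belong to the human genes of the same name, not to the rows as named. The sources name human genome builds, which these mouse names do not match. Whether the reads came from human or mouse cells was not tested. Windows were found for 9 of the 10 genes, SHMT2 being the exception. A match lay in the windows of 2 of these 9, ASNS and CHAC1 (22.2%), and in those of 4.46% of all 27305 genes with a window. Most of the 10 were listed as known ATF4 targets, and genes differ in their number of windows. These shares are thus no test of enrichment. The stretches around both matches are shown because these genes responded to different degrees, and that of ATF3, a related bZIP gene described further on, is shown beside them. The capitals mark the match, and each line reads 5′ to 3′ along the gene's strand. The ASNS stretch is chr7:97872433-97872512 on the minus strand, that of CHAC1 is chr15:40953226-40953305 on the plus strand, and that of ATF3 is chr1:212565180-212565259 on the plus strand.
ASNS: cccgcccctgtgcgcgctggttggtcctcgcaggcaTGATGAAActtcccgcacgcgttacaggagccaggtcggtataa
CHAC1: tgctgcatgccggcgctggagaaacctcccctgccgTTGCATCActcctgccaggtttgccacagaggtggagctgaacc
ATF3: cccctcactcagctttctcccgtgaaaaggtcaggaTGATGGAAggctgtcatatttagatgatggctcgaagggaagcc
The ASNS match lay at positions −68 to −61 from the start. The CHAC1 match, on the opposite strand, lay at −209 to −202. A match is a run of letters in a window and was not measured as a bound site.

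The libraries held 36979221 to 38799331 counts, and the 10 genes had 895 to 25304 counts per library, so counting error was small for each of them. The symbols are in the style of mouse genes: 4650 begin with Gm and a digit and 1129 end in Rik, which are names given to mouse genes. All 10 names equal a human symbol apart from case. The table holds 0 rows named LINC00115, so the knockdown could not be checked and every direction rests on the labels. Marker lists of other tissues moved with the group. All 10 lung epithelium genes listed were higher in every KD library than in any control, with more than 3 counts in each KD library and summed levels of 0.982 to 1.30 normalized CPM (counts relative to the TMM-scaled total of the library) in the controls, where 7 of the 10, among them Sftpc and Scgb1a1, were at 0, and 72.4 to 84.5 in the KD libraries. For 12 kidney tubule genes the sums were 9.37 to 9.80 and 29.0 to 32.4 CPM (10 higher, 1 lower, with Umod and Aqp2 among 7 at 0 in the controls). For 12 leukocyte genes they were 72.2 to 86.1 and 144 to 160 CPM (4 higher, with Cd3e at 0 in all libraries), and for 8 endothelial genes 1.54 to 1.88 and 58.2 to 61.1 CPM (3 higher, 1 lower, with Cldn5 and Emcn at 0 in the controls). Sums for 8 fibroblast genes were 175 to 193 and 76.6 to 78.6 CPM (1 higher, 3 lower, with Postn at 0 in the controls), and those for 8 liver genes were 0 to 0.344 and 1.06 to 1.37 CPM (1 higher, with Cps1 at 0 in all libraries). For 10 genes of the line and of stem cells the sums were 9276 to 9527 and 8955 to 9107 CPM (4 higher, 2 lower). Among them Vim and Cd44 were abundant, while Aldh1a1 was at most 1.34 CPM and Aldh1a3 and Prom1 at or near 0. The cells were sorted for aldehyde dehydrogenase activity, and of this enzyme family only Aldh1a1 and Aldh1a3 were listed. For 10 luminal genes the sums were 708 to 729 and 1043 to 1091 CPM (5 higher, 1 lower). The part of other cells in the results that follow was not tested, and in bulk RNA fewer cells of a type and less RNA per cell cannot be told apart.

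The question for these genes was whether their RNA differed between the libraries labelled LINC00115 KD and those labelled WT. Atf4, 3 of its stress targets (Asns, Trib3 and Chac1) and all 4 serine and folate enzymes rose in the KD libraries, by 1.22-fold to 2.07-fold. Ddit3 and Sesn2, which belong to the same textbook response, did not rise. In counts, 8 of the 10 were higher, 1 was lower and 1 did not pass the test at an adjusted p under 0.05 (edgeR's quasi-likelihood test, Benjamini-Hochberg adjustment over 13497 genes). Of all genes tested, 36.7% were called higher and 36.7% were called lower in this comparison. The 10 genes and the related lists were chosen with earlier results of these data known. Their counts beside these shares are thus no independent test. With a fold over 2 required as well, 1 gene, Asns, was called higher and 0 were called lower, beside 10.2% and 9.98% of all genes tested. In 8 of the 10 every KD library lay above every control, which held for 37.8% of all genes tested. The median log2 fold change of the 10 was 0.58, and that of all genes tested was −0.0061.

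**Figure D1:**
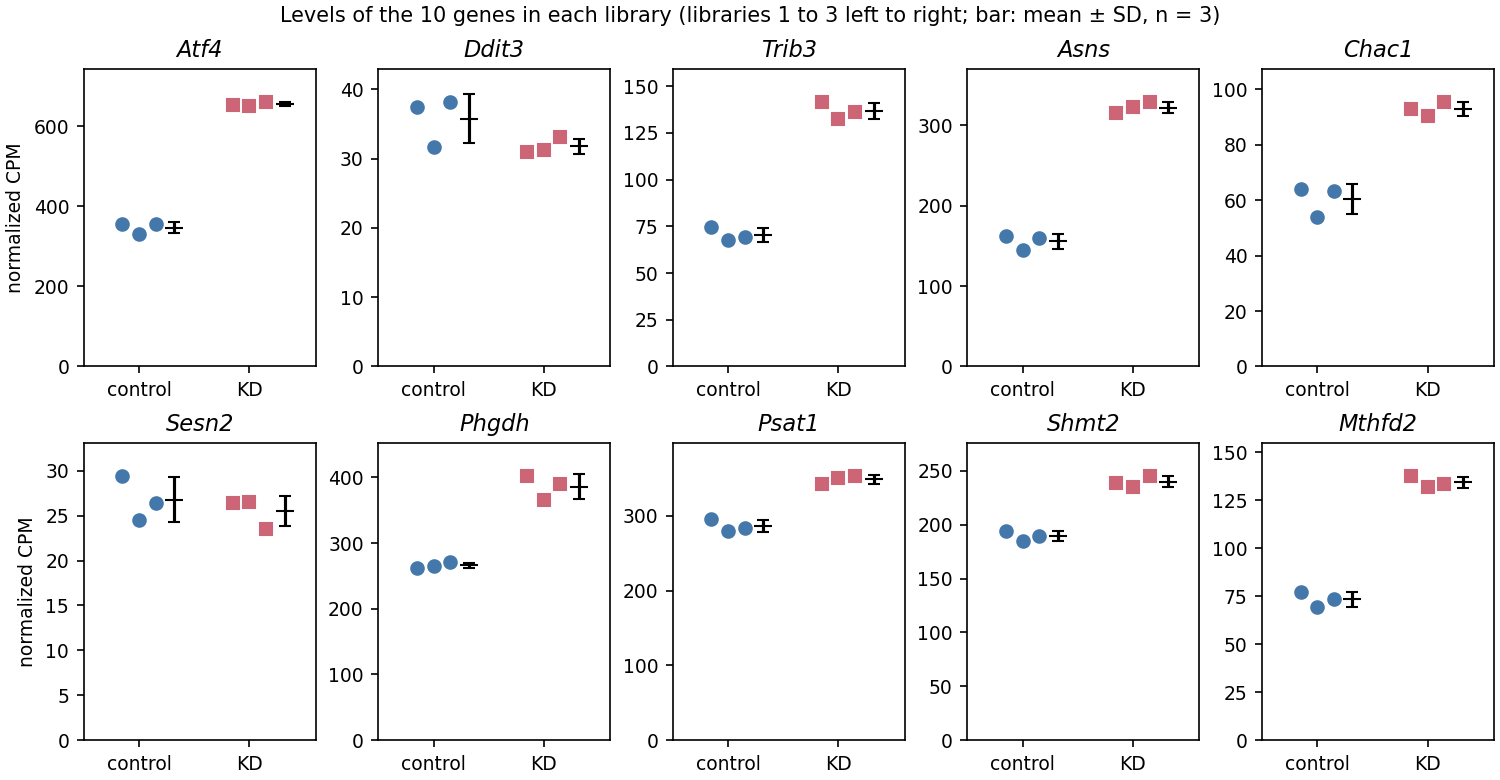
Normalized CPM (y axis, from 0) of each of the 10 genes in the 3 control (blue circles) and 3 KD libraries (red squares), with the mean and SD of each group in black. The groups are apart for 8 genes and overlap for Ddit3 and Sesn2.

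Atf4, the transcription factor itself, had normalized CPM of 356, 330.0 and 356 in control libraries 1 to 3 and of 654, 652 and 660.3 in KD libraries 1 to 3. The KD libraries were tightly grouped and all lay far above the controls. The mean rose from 347 ± 14.98 to 656 ± 4.23 CPM (SD, n = 3 libraries each), a 1.89-fold difference and a log2 fold change of 0.92 ± 0.03 (SE, adjusted p = 8.43e-23, edgeR). This change stood at the 88.1 percentile of all genes tested.

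Ddit3 encodes CHOP, a bZIP factor known for promoting death in prolonged stress and usually listed among the genes that ATF4 induces. It had 37.4, 31.7 and 38.1 CPM in the controls and 31.0, 31.3 and 33.1 CPM in the KD libraries. Control 2 lay inside the range of the KD libraries, so the groups overlapped. The mean was 35.7 ± 3.53 CPM in the controls and 31.8 ± 1.12 CPM in the KD libraries, a log2 fold change of −0.17 (95% confidence interval −0.31 to −0.026, adjusted p = 0.0311, edgeR). This small fall lost its call when control 1, control 3, KD 1 or KD 2 was left out (adjusted p = 0.112, 0.175, 0.114 and 0.106) and with DESeq2 (adjusted p = 0.0906).

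Set against Atf4 within each library, Ddit3 counts were 0.105, 0.0960 and 0.107 of the Atf4 counts in the controls and 0.0474, 0.0480 and 0.0501 in the KD libraries. These shares also depend on the lengths of both genes, which do not differ between libraries, and the KD values all lay below the controls. The log2 ratio differed by −1.08 (exact two-sided permutation p = 0.1, the smallest that 3 against 3 libraries allow, adjusted p = 0.133 over 4 ratios).

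Trib3 encodes a pseudokinase that damps ATF4 and CHOP activity and AKT signalling. Its levels were 74.7, 67.5 and 69.3 CPM in the controls and 141, 133 and 136 CPM in the KD libraries, with no overlap. The mean rose 1.94-fold from 70.5 ± 3.76 to 137 ± 4.39 CPM, with a log2 fold change of 0.96 ± 0.05 (SE, adjusted p = 1.94e-19, edgeR). Among the stress targets it was just under the 2-fold threshold and Asns just over it.

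Chac1, a γ-glutamylcyclotransferase that breaks down glutathione, had 63.9, 54.1 and 63.2 CPM in the controls and 93.0, 90.3 and 95.4 CPM in the KD libraries. All KD libraries were above all controls, among which control 2 was low. The rise was 1.54-fold, from 60.4 ± 5.49 to 92.9 ± 2.53 CPM (log2 fold change 0.62 ± 0.05 SE, adjusted p = 1.75e-12, edgeR).

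Sesn2 encodes sestrin 2, a leucine sensor that restrains mTORC1. It had 29.4, 24.5 and 26.4 CPM in the controls and 26.4, 26.6 and 23.6 CPM in the KD libraries. The groups overlapped, with the highest library in the controls and the lowest in KD. The means were 26.8 ± 2.47 and 25.5 ± 1.70 CPM, and the log2 fold change of −0.07 did not pass the test (95% confidence interval −0.23 to 0.089, adjusted p = 0.430, edgeR). The interval leaves out changes as large as those of Atf4, Asns, Trib3 or Chac1, and without control 1 the value was 0.0036.

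Asns, asparagine synthetase, which makes asparagine from aspartate and glutamine, had the largest change of the 10. Its levels were 162, 145 and 159.8 CPM in the controls and 315, 322 and 329 CPM in the KD libraries, 2 well separated groups. The mean rose 2.07-fold from 155 ± 9.45 to 322 ± 6.70 CPM (log2 fold change 1.05 ± 0.04 SE, adjusted p = 1.50e-22, edgeR). Its promoter stretch is the first of those printed above.

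**Figure D2:**
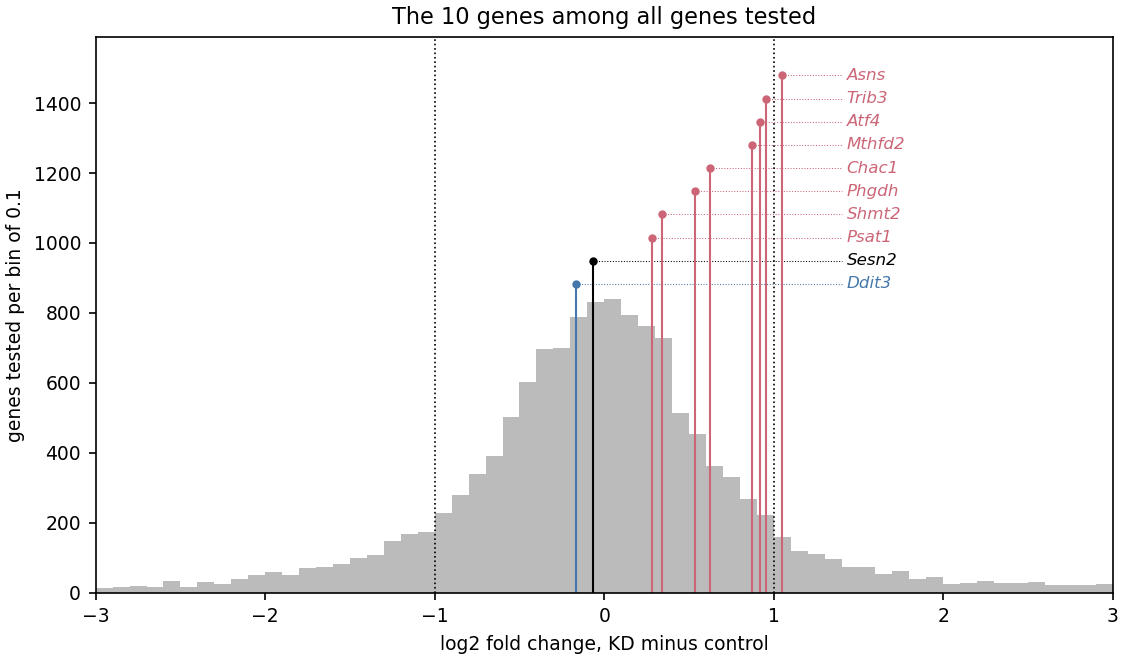
Histogram of the log2 fold change, KD minus control, of the genes tested (x axis, bins of 0.1, with 445 genes beyond 3 log2 units not drawn), with a line for each of the 10 genes in red where higher, blue where lower and black where not passing the test. The 8 higher genes lie to the right of 0, from the 67.1 percentile (Psat1) to the 90.1 percentile (Asns) of all genes tested. Of the 10 only Asns is past the dotted line at 1.

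The serine synthesis enzymes rose less than Atf4. Phgdh, which catalyses the first and committed step, had 263, 265 and 271 CPM in the controls and 402, 366 and 390.2 CPM in the KD libraries. The KD libraries were more spread than the controls but did not meet them. The mean rose 1.45-fold from 266 ± 4.18 to 386 ± 18.7 CPM (log2 fold change 0.54 ± 0.04 SE, adjusted p = 1.94e-15, edgeR).

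Psat1, the aminotransferase of the second step, had 296, 279.9 and 284 CPM in the controls and 342, 351 and 353 CPM in the KD libraries. It showed the smallest rise of the 8, with groups that still did not overlap. The rise was 1.22-fold, from 287 ± 8.15 to 349 ± 5.76 CPM (log2 fold change 0.28 ± 0.03 SE, adjusted p = 3.51e-09, edgeR). Psph, the phosphatase of the last step and not one of the 10, rose from 56.5 ± 5.59 to 83.1 ± 3.14 CPM (log2 fold change 0.56 ± 0.06 SE, adjusted p = 7.98e-11, edgeR), so all 3 enzymes of the pathway were higher.

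Shmt2, the mitochondrial enzyme that splits serine into glycine and a folate-bound carbon, had 194, 185 and 189 CPM in the controls and 239, 235 and 245 CPM in the KD libraries. The mean rose 1.27-fold from 189 ± 4.62 to 239.8 ± 5.07 CPM (log2 fold change 0.34 ± 0.04 SE, adjusted p = 2.61e-10, edgeR). The KD libraries were all above the controls by several times the spread within a group. Shmt1, its cytosolic counterpart, went the other way, from 68.3 ± 4.14 to 61.6 ± 2.40 CPM (log2 fold change −0.15, adjusted p = 0.0127, edgeR), with overlapping groups and a call that was lost without control 3, KD 2 or KD 3 (adjusted p = 0.107, 0.0832 and 0.0627).

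Mthfd2, the mitochondrial methylenetetrahydrofolate dehydrogenase and cyclohydrolase, had 77.1, 69.6 and 73.5 CPM in the controls and 138, 132 and 133 CPM in the KD libraries. Its change was the largest of the 4 serine and folate enzymes and close to that of Atf4. The mean rose 1.83-fold from 73.4 ± 3.75 to 134 ± 3.02 CPM (log2 fold change 0.87 ± 0.04 SE, adjusted p = 1.59e-18, edgeR). Mthfd1, the cytosolic enzyme, also rose, from 55.7 ± 6.62 to 91.5 ± 1.96 CPM (log2 fold change 0.72, adjusted p = 3.75e-13, edgeR).

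The ratio of each mitochondrial enzyme to its cytosolic counterpart within a library does not depend on how libraries are scaled. The log2 ratio of Shmt2 to Shmt1 counts was 1.60, 1.42 and 1.39 in the controls and 1.89, 1.98 and 2.01 in the KD libraries. It was higher in every KD library, by 0.49 (exact two-sided permutation p = 0.1, the smallest possible, adjusted p = 0.133 over 4 ratios). The log2 ratio of Mthfd2 to Mthfd1 counts was 0.67, 0.29 and 0.26 in the controls and 0.57, 0.51 and 0.58 in the KD libraries. Control 1 stood above all KD libraries, and the difference of 0.15 was within the spread (exact two-sided permutation p = 0.4, adjusted p = 0.4). This difference was 0.28 without control 1, 0.090 without control 2 and 0.077 without control 3.

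Between the first steps of serine synthesis, the log2 ratio of Phgdh to Psat1 counts was −0.17, −0.076 and −0.071 in the controls and 0.23, 0.059 and 0.14 in the KD libraries. Phgdh rose more than Psat1, and the ratio was higher in every KD library, by 0.25 (exact two-sided permutation p = 0.1, adjusted p = 0.133 over 4 ratios).

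**Figure D3:**
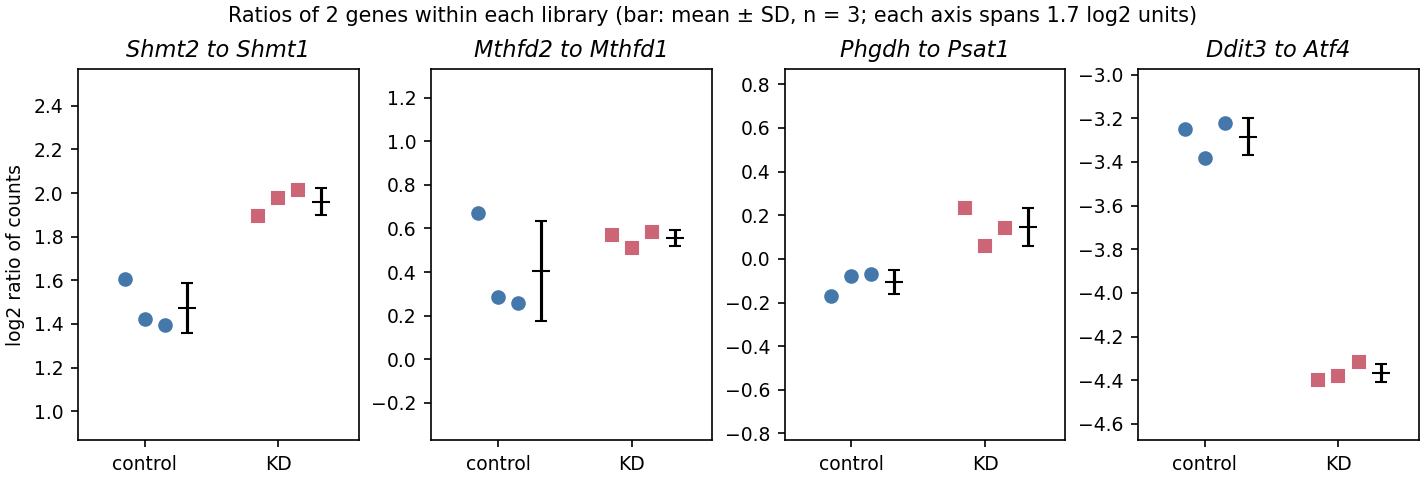
Log2 ratio of counts within each library (y axis) for the 4 pairs of genes, in the 3 control and 3 KD libraries. The groups are apart for Shmt2 to Shmt1, Phgdh to Psat1 and Ddit3 to Atf4, and overlap for Mthfd2 to Mthfd1.

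The spread among libraries of 1 group was small. The coefficient of variation of the normalized CPM ran from 1.57% to 9.89% over the 10 genes in the controls (median 5.22%) and from 0.645% to 6.65% in KD (median 2.49%). Control 2 was the lowest control for 9 of the 10 genes, the exception being Phgdh, whereas it was the lowest control for 31.9% of 13395 genes tested without ties. For the 8 higher genes the gap between control 2 and the other controls was smaller than the difference between the groups.

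**Figure D4:**
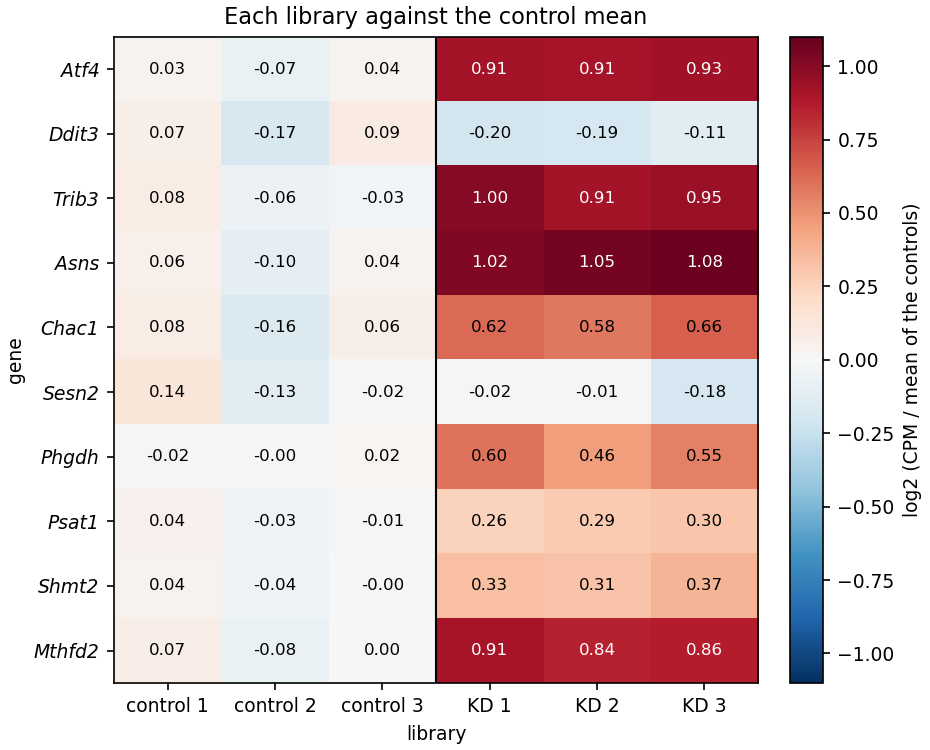
Log2 of the normalized CPM of each library over the control mean (color and printed value) for the 10 genes (rows) in the 6 libraries (columns). KD columns are red for 8 genes, with the deepest color for Asns, while Ddit3 and Sesn2 stay pale in all libraries.

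Upstream of Atf4, the list of eIF2α kinases, phosphatase subunits, eIF2 and eIF2B subunits and the GCN2 regulators Gcn1 and Impact had 10 of its 16 genes higher, 3 lower and 3 not passing the test, with a median log2 fold change of 0.27. All genes tested gave 36.7% higher and 36.7% lower. The 4 kinases split. Eif2ak1 (HRI, the heme and mitochondrial stress kinase) rose from 30.2 to 48.1 CPM (log2 fold change 0.67, adjusted p = 5.11e-12, edgeR). Eif2ak2 (PKR, which senses double-stranded RNA) rose from 220.2 to 332 CPM (log2 fold change 0.59, adjusted p = 4.65e-17, edgeR). Eif2ak3 (PERK, the ER stress kinase) fell from 22.6 to 16.8 CPM (log2 fold change −0.43, adjusted p = 2.55e-05, edgeR), and Eif2ak4 (GCN2, the amino acid shortage kinase) from 46.0 to 31.6 CPM (log2 fold change −0.54, adjusted p = 2.24e-09, edgeR). RNA levels do not measure kinase activity. Ppp1r15a (GADD34), the stress-induced phosphatase subunit and usually an ATF4 target, had 42.9 CPM in the controls and 41.8 CPM in KD and did not pass the test (log2 fold change −0.039, adjusted p = 0.578, edgeR), whereas Ppp1r15b, the constitutive subunit, rose from 136 to 173 CPM (log2 fold change 0.34, adjusted p = 8.07e-10, edgeR).

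Of 12 bZIP partners and companions of ATF4, 10 were tested, of which 7 were higher, 1 was lower and 2 did not pass, with a median log2 fold change of 0.44. Shares over all genes tested were 36.7% higher and 36.7% lower. The related factors Atf5 and Atf3 rose more than Atf4. Atf5 went from 36.2 ± 1.85 to 89.7 ± 2.94 CPM (log2 fold change 1.31 ± 0.05 SE, adjusted p = 1.86e-21, edgeR), and Atf3, whose promoter stretch is printed above, from 23.9 ± 0.505 to 56.5 ± 1.73 CPM (log2 fold change 1.24 ± 0.06 SE, adjusted p = 4.32e-19, edgeR). The C/EBP partners rose less, with log2 fold changes of 0.44 for Cebpb and 0.32 for Cebpg.

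Among 44 other genes listed as ATF4 targets, 42 were in the table and 37 were tested. Of these, 25 were higher, 8 were lower and 4 did not pass, and the median log2 fold change was 0.48. By over 2-fold, 9 were higher and 2 lower. Over all genes tested, the shares were 36.7% higher and 36.7% lower, and 10.2% and 9.98% by over 2-fold. Among the genes named by size of change, Slc7a11, the cystine importer, rose 4.88-fold from 128 ± 9.78 to 625 ± 9.33 CPM (log2 fold change 2.29 ± 0.04 SE, adjusted p = 4.23e-32, edgeR), Slc7a1, the arginine and lysine carrier, from 148 ± 2.47 to 414 ± 6.40 CPM (log2 fold change 1.49, adjusted p = 1.28e-28, edgeR), and Cth, which makes cysteine from cystathionine, from 12.4 ± 2.60 to 38.7 ± 2.80 CPM (log2 fold change 1.64, adjusted p = 7.09e-17, edgeR). The cholesterol esterification gene Soat2 rose from 0.831 to 7.92 CPM (log2 fold change 3.25, adjusted p = 9.10e-15, edgeR) on as few as 17 counts in a control library. The 2 genes that fell by over 2-fold, Vegfa (540.2 ± 38.8 to 161 ± 6.24 CPM, log2 fold change −1.74, adjusted p = 1.93e-28, edgeR) and Ddit4 (153.9 ± 4.38 to 56.9 ± 3.13 CPM, log2 fold change −1.44, adjusted p = 1.86e-24, edgeR), encode an angiogenic growth factor and an mTORC1 inhibitor and are also known as hypoxia-induced genes.

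Of 37 other serine, glycine and folate genes, 33 were tested, of which 15 were higher, 13 lower and 5 not passing, with a median log2 fold change of −0.0038. Of all genes tested, 36.7% were called higher and 36.7% lower. Folate carriers and the methyl donor enzyme were among the rises: Slc19a1, the reduced folate carrier, from 14.5 to 42.1 CPM (log2 fold change 1.54), Slc25a32, which brings folate into mitochondria, from 47.8 ± 1.98 to 97.1 ± 3.21 CPM (1.02), and Mat2a, which makes S-adenosylmethionine, from 214 ± 4.16 to 483 ± 19.6 CPM (1.17). The folate receptor gene Folr1 rose from 0.406 to 1.15 CPM (log2 fold change 1.50, adjusted p = 0.0038, edgeR) on as few as 11 counts. Of the 4 glycine cleavage genes, Amt fell from 3.52 to 1.10 CPM (log2 fold change −1.68, adjusted p = 1.69e-06, edgeR) and Gldc from 0.813 to 0.158 CPM on as few as 4 counts (log2 fold change −2.33, adjusted p = 6.59e-04, edgeR), both at low levels. Of the other members, named after their values were seen, Gcsh had 43.1 and 43.9 CPM (log2 fold change 0.028, adjusted p = 0.688, edgeR) and did not pass the test, and Dld rose from 119 to 129 CPM (adjusted p = 0.0109, edgeR). Of the mitochondrial neighbours of Mthfd2 outside the 10, Mthfd1l, which releases formate, fell from 156 ± 4.77 to 134 ± 5.87 CPM (log2 fold change −0.22, adjusted p = 1.11e-05, edgeR), and Aldh1l2 had 78.8 ± 9.55 and 72.7 ± 0.894 CPM (log2 fold change −0.12, adjusted p = 0.0713, edgeR).

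Among all genes tested, 36.7% were called higher and 36.7% lower. The ER chaperone list, which reports the other arms of the unfolded protein response, had 12 of 21 tested genes lower, 5 higher and 4 not passing. Its median log2 fold change was −0.30. Crebrf, a regulator of that response, fell most, from 24.6 to 9.08 CPM (log2 fold change −1.44, adjusted p = 6.86e-16, edgeR). Of genes named after their values were seen, the chaperone Hspa5 (BiP) did not pass the test (log2 fold change 0.017, adjusted p = 0.609, edgeR), and Calr, Pdia4, Pdia3 and Hsp90b1 fell, with log2 fold changes of −0.79, −0.78, −0.77 and −0.76. The 5 higher genes of the list, not named here, had log2 fold changes of at most 0.57.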

How the data were processed

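Per the labels and the study's methods, RNA of 6 libraries was sequenced, trimmed and mapped with HISAT2. The methods name hg19, the submitters' processing notes hg38, featureCounts and DESeq2, and the kits named for the libraries also differ. Neither gene annotation nor strand setting is given in the sources used here. The authors deposited whole-number counts per gene, without normalization, between 36979221 and 38799331 per library. The columns of values not used number 0.

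The fit used edgeR 4.0.16 (R 4.3.3): filterByExpr (minimum count 10, minimum total 15), TMM scaling, a quasi-likelihood test with the group only, and Benjamini-Hochberg adjustment over 13497 genes. Thresholds were an adjusted p under 0.05 and, where said, a fold over 2. Standard errors are the log2 fold change over the root of F. Within-library ratios had 0.5 added to each count and were tested by exact permutation. The edgeR fit alone was tested on simulated data. Alternatives were other scalings and filters, DESeq2 1.42.0, each library left out, the replicate number as a block, no fold threshold and another pseudocount. The 10 genes and all lists, written by hand, were chosen with earlier results of these data known. From each related list the genes called, at most 4 per direction by size of change, could be named, plus the isozymes and neighbours of the serine pathway, the eIF2α kinases, Ppp1r15a, Atf3, Atf5, Cebpb and Cebpg. Genes named outside this rule, including Ppp1r15b, were chosen after their values were seen. In the human annotation 4 of the 10 (Atf4, Asns, Psat1 and Mthfd2) have named processed copies, whose reads could be split. None of these copies is listed in the table. Its mouse symbols would not include these human names, so this does not show whether reads were split. One marker gene that enters the sums is not reported here by itself.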

Additional observations from a re-analysis of the deposited data

How the results depend on the processing

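The 8 higher genes kept direction and call under every alternative run. Their log2 fold changes ranged from 1.003 to 1.08 for Asns, 0.91 to 0.9995 for Trib3 and 0.88 to 0.94 for Atf4. Without the fold threshold, 8 of the 10 were higher and 1 was lower. Of the 126 related genes tested, 64 and 42 were so, against 16 and 5 with the threshold. Shares over all genes tested were 36.7% in each direction without the threshold and 10.2% and 9.98% with it. DESeq2 called 0 of the 10 lower, and leaving out 1 library at a time gave 0 to 1. Leaving out 1 library moved the log2 fold change of Sesn2 between −0.13 and 0.0036 and that of Ppp1r15a between −0.068 and 0.025. Reversed, with no call either way, were Sesn2 without control 1 (log2 fold change 0.0036, adjusted p = 0.972) and Ppp1r15a without KD 3 (0.025, adjusted p = 0.758). Aldh1l2 passed the test with upper quartile scaling, library-size scaling, no filter, the replicate block, or without control 2 or control 3 (adjusted p = 0.0114 to 0.0478). Leaving out 1 library at a time gave 0.45 to 0.55 for the log2 ratio of Shmt2 to Shmt1, 0.077 to 0.28 for Mthfd2 to Mthfd1, 0.21 to 0.29 for Phgdh to Psat1 and −1.13 to −1.05 for Ddit3 to Atf4. The cause of these shifts was not tested.

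Libraries of both groups share replicate numbers, but the deviations of same-numbered libraries correlated at 0.0421, −0.0147 and −0.0214, so the numbers were not taken as pairs. With the replicate block, 8 of the 10 were higher, 1 was lower and 1 was higher by over 2-fold, and 64 related genes were higher and 43 lower. The ratios had exact sign-flip permutation p = 0.25, 0.5, 0.25 and 0.25, where 0.25 is the smallest that 3 pairs allow.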

Other observations

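Of 10 relatives of these genes that are not known mainly as ATF4 targets, 3 were higher, 5 lower and 2 did not pass the test. The shares over all genes tested were 36.7% higher and 36.7% lower. The other sestrins fell where Sesn2 did not pass: Sesn3 from 34.4 to 24.1 CPM (log2 fold change −0.52, adjusted p = 4.81e-08, edgeR) and Sesn1 from 7.84 to 5.68 CPM (−0.47, adjusted p = 0.0049, edgeR). Chac2, the constitutive counterpart of Chac1, fell from 14.0 to 11.1 CPM (−0.34, adjusted p = 0.0035, edgeR). Trib1, a relative of Trib3, rose from 97.7 to 120.2 CPM (0.30, adjusted p = 8.77e-08, edgeR). Of the factors closest to CREB, Atf1 rose from 54.8 to 112 CPM (1.03, adjusted p = 5.65e-20, edgeR) and Creb1 fell from 93.8 to 70.4 CPM (−0.41, adjusted p = 2.41e-09, edgeR).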
